A study of Mus musculus with 4 samples.

Results

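The genes described here encode the enzymes that build fatty acids from acetyl-CoA and load them onto glycerol to make triglyceride. They are Acly, Acaca, Acacb, Fasn, Elovl6, Elovl5, Scd1, Gpam, Dgat1 and Dgat2, 10 of the 21887 protein-coding genes of the mouse RefSeq annotation. They were chosen by name, with earlier results of these data known. Every MafG peak whose midpoint lay inside one of them or within 50 kb of either end was collected. This gave 90 peaks of the 68763 that were listed, each in the window of a single lipogenic gene. The chromatin came from whole liver of C57BL6/J mice under the treatment labelled Ad BLRP MAFG (2 libraries, BLRP-MafG livers) or Ad BLRP Control (2 libraries, BLRP control livers), and both were precipitated with an antibody against the Avi-tag. The sources used here do not give age, sex, time after treatment or the number of animals per library. MafG was overexpressed and tagged, so that its native occupancy was not measured. The study's title places these maps in the control of bile acid synthesis; the lipogenic genes are a further view of the same list.

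The deposited list gave 1 BLRP-MafG value and 1 control value per peak, with no value per library, so there is no replicate error and no test between animals. Heights are BLRP-MafG tags scaled by the authors to 10000000 tags in total, called scaled tags below. Intervals in parentheses are exact 95% Poisson intervals of the tags, and ratios to control carry exact 95% conditional binomial intervals; both cover counting error only. Depth was 20406492 BLRP-MafG tags and an implied 1.72e+07 control tags. Every listed peak had already passed the authors' required excess of 10-fold over control and 4-fold over the surrounding 10 kb. Positions are on mm10. Whole liver was used, so signal cannot be given to a cell type.

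MafG belongs to the small MAF factors, which bind DNA as dimers through a basic leucine zipper, have no activation domain, and so depend on their partner for activation. Liver makes fatty acids from surplus carbohydrate: ATP citrate lyase supplies cytosolic acetyl-CoA, the acetyl-CoA carboxylases make malonyl-CoA, and fatty acid synthase assembles palmitate. Elongases and desaturases then remodel the chains, and acyltransferases esterify them to glycerol. The transcription of these enzymes is known to follow insulin and carbohydrate through the factors SREBP-1c and ChREBP and the oxysterol receptor LXR.

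All 10 genes carried MafG peaks within their own length, but the heights differed widely between them. A peak inside the gene was found in 10 of 10, against 50.5% of all protein-coding genes and 70.1% of the 13962 genes of at least 10 kb, the class to which all 10 belong. Inside or within 10 kb the count was 10 of 10, against 74.5%, and within 50 kb it was 10 of 10, against 93.5%, so the wide window does not set these genes apart. Within 1 kb of an end the count was 5 of 10 (Acaca, Acacb, Elovl5, Gpam and Dgat1), against 24.5%. The peak counted there for Acaca, of 5.88, lay 40 bp outside the gene and inside Tada2a. A peak of at least 100 scaled tags within 50 kb was found at 4 of 10, against 16.4%, and one of at least 200 at 3 of 10, against 5.47%. At a limit of 50 the count was 7 of 10, against 35.4%, and inside the gene body 2 of 10 held a peak of at least 100, against 5.33%. The height limits were chosen with earlier results of these data known. In the counts within 50 kb, the peak counted for Dgat2 lies nearer to Mogat2. At the limit of 50, those counted for Acaca and Dgat1 lie nearer to Aatf and Scrt1. The Dgat1 peak, of 50.0 (40.8 to 60.7), stood at the limit itself. The lipogenic genes were longer than most, with a median of 55667 bp, against 17169 bp over all protein-coding genes, and longer genes have more room for a peak.

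**Figure D1:**
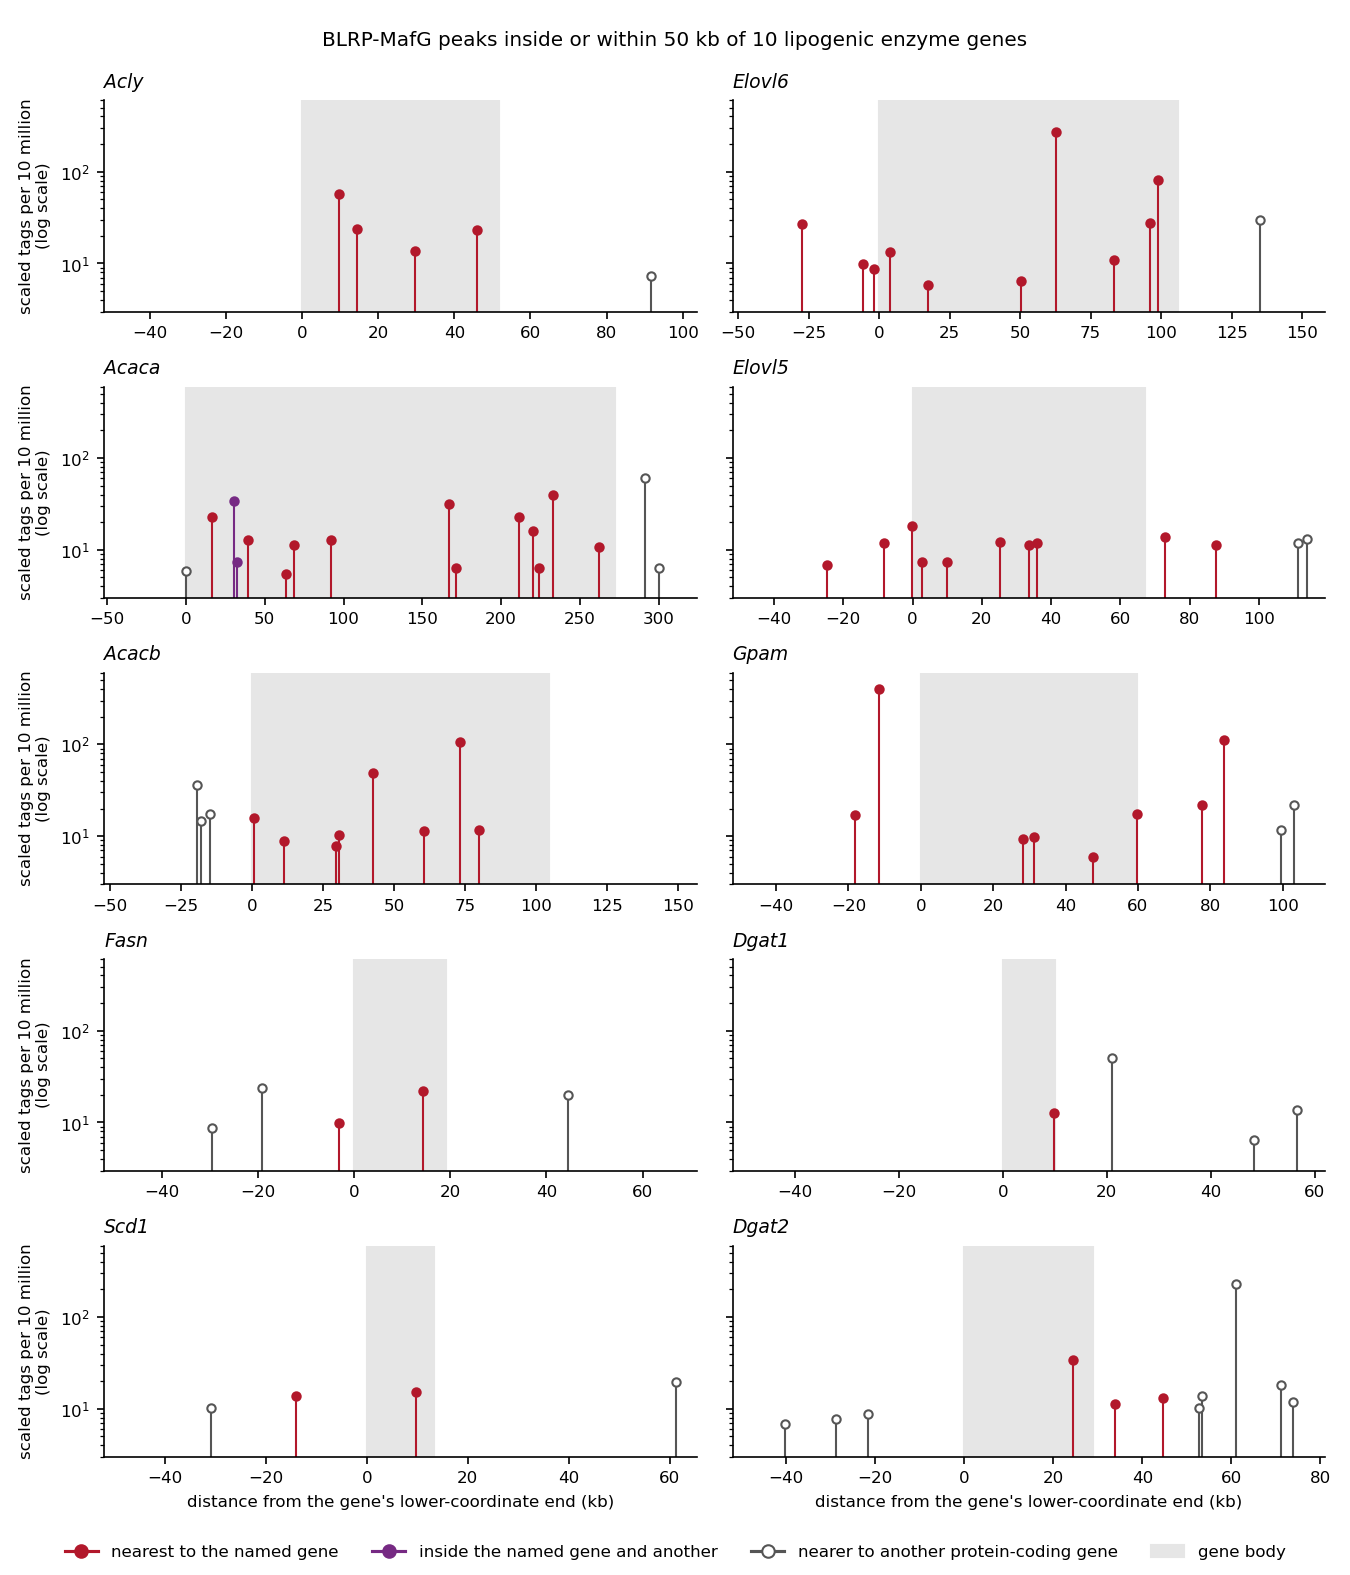
Height of each of the 90 listed BLRP-MafG peaks (vertical axis, scaled tags, log scale) against its distance in kb from the end of the gene with the lower coordinate (horizontal axis), with 1 panel per gene and the gene body shaded. Filled red points are nearest to the named gene, filled purple points lie inside it and a further gene, and open points are nearer to another protein-coding gene; the tallest points stand outside Gpam, inside Elovl6 and beyond Dgat2.

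Within 50 kb the tallest peaks of the genes ran from 18.1 to 404 scaled tags. Gpam came first with 404 (377 to 432), followed by Elovl6 with 270.0 (248 to 294), Dgat2 with 227 (207 to 249) and Acacb with 105 (91.3 to 119.9). Acaca with 60.8 (50.5 to 72.4), Acly with 57.8 (47.9 to 69.2) and Dgat1 with 50.0 (40.8 to 60.7) came next. Fasn with 24.0 (17.8 to 31.7), Scd1 with 19.6 (14 to 26.7) and Elovl5 with 18.1 (12.8 to 25) were lowest. Neighbours in this order whose intervals overlapped were Elovl6 and Dgat2, Acaca and Acly, Acly and Dgat1, Fasn and Scd1, and Scd1 and Elovl5. The intervals of Gpam and Elovl6, of Dgat2 and Acacb, of Acacb and Acaca, and of Dgat1 and Fasn did not overlap. The order depended on the window: within 10 kb it was Elovl6 (270.0), Acacb (105), Acly (57.8), Acaca (39.7), Dgat2 (34.3), Fasn (22.1), Elovl5 (18.1), Gpam (17.6), Scd1 (15.2) and Dgat1 (12.7), so that Gpam was among the lowest. Within 50 kb the median of the 10 was 59.3, against 33.8 over all protein-coding genes (quartiles 16.7 and 69.6).

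**Figure D2:**
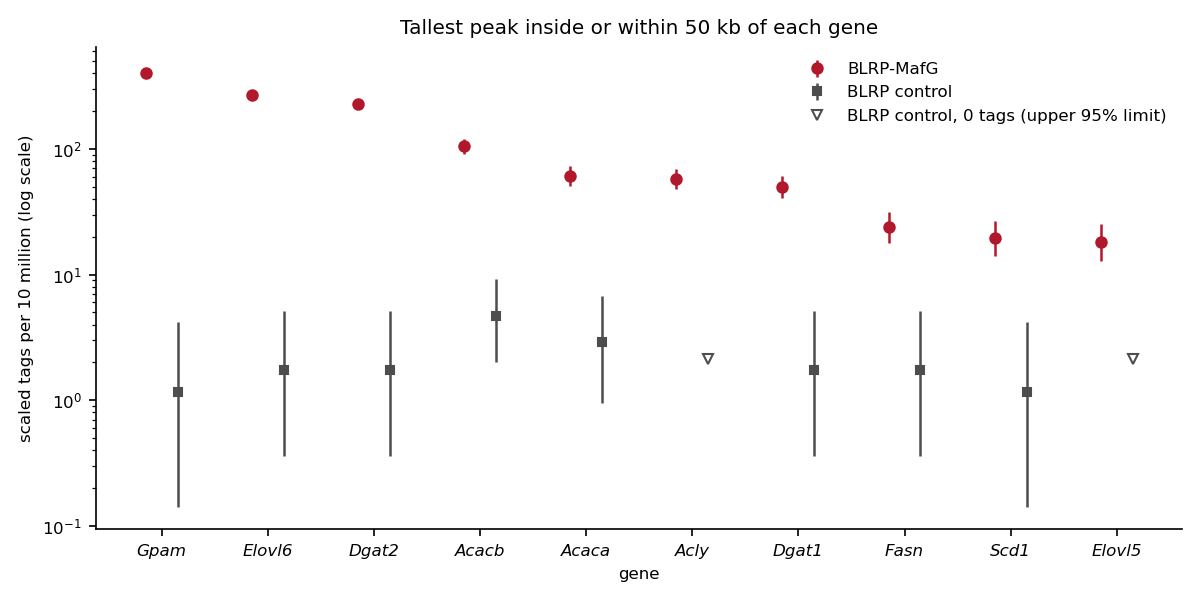
Tallest peak inside or within 50 kb of each gene in BLRP-MafG (red circles) and the BLRP control signal at the same position (grey squares), both in scaled tags on a log axis, with exact 95% Poisson intervals as bars; open triangles give the upper limit where the control held 0 tags. BLRP-MafG heights run from 404 at Gpam to 18.1 at Elovl5. Each lies above its own control value by construction, since every listed peak had to exceed the control 10-fold.

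Peaks stood at some of the listed promoters. The RefSeq table of promoters, on GRCm38.p6, the assembly of mm10, held 8 windows for 7 of the genes (Acly, Acaca, Acacb, Fasn, Elovl6, Elovl5 and 2 for Gpam); Scd1, Dgat1 and Dgat2 were not matched. Each window runs from 250 bases before a listed transcription start to 50 after it. Of the 71 peaks around these 7 genes, 3 had their midpoint within 1 kb of a listed start. The same share for the peaks around all genes with a listed start is not given. For Acaca and Acacb, both on the plus strand, the listed starts lie inside the genes, at 84195438 and 114165518. Their annotated upstream ends are at 84129635 and 114146321, which the listed windows do not cover. A peak of 5.88 stood 40 bp outside that end of Acaca, and one of 15.7 stood 670 bp inside that of Acacb. Neither is among the 3. In 2 windows, those of Elovl5 and of the upstream start of Gpam, a peak midpoint lay in the window itself, as it did in 1931 of 21263 windows of protein-coding genes. The 250 bases before each of these starts are printed here because no other listed window of these genes held a peak. Capitals mark the letters CCAAT, a box bound by NF-Y and common in lipogenic promoters, read on either strand (ATTGG on the other), and CACGTG, an E-box. The Elovl5 bases lie at chr9:77917115-77917364 on the plus strand, and bases 1 to 165 of those printed fall within the peak. The Gpam bases lie at chr19:55127239-55127488 and are read on the minus strand, and bases 99 to 250 of those printed fall within the peak.
Elovl5 promoter: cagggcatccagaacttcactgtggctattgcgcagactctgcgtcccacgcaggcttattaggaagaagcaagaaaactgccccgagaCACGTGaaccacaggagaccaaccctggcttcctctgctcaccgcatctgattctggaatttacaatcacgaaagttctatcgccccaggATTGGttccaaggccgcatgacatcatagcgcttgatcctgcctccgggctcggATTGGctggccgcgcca
Gpam promoter: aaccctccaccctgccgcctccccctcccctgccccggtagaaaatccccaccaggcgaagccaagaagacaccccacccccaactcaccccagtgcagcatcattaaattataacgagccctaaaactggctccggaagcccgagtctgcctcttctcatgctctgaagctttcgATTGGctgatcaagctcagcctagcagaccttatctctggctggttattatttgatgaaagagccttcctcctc

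The letters of the usual MafG sites were not found in any of the 8 windows. The motifs searched, on both strands, were TGACNNNGC, the core of the antioxidant response element, TGANTCA, the AP-1 core, and TGCTGA, an arm of the MAF recognition element. These letters stood in 13%, 6.99% and 18.1% of 21263 promoter windows of protein-coding genes, in that order, and in 18.9%, 6.37% and 24.5% of the 1931 windows that held the midpoint of a peak. The lipogenic windows held 0 matches to each, which says only that these letters are not in these 300 bases. CCAAT and CACGTG were added after the sequences had been read. CCAAT stood in 5 of the 8 windows (Acacb, Acly, Elovl5, Fasn and the upstream Gpam window), against 38.2% of all windows, and CACGTG in 1, that of Elovl5, against 7.84%. In the 1931 windows that held the midpoint of a peak, the shares were higher, at 47.6% and 9.89%. In the Elovl5 promoter the CACGTG lies within the peak, 27 bp from its midpoint, whereas both CCAAT boxes lie outside it. In the Gpam promoter the CCAAT box lies within the peak, 20 bp from its midpoint.

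Both promoter peaks were above the median height of all listed peaks, 12.3, and well below the tallest peaks of the set. The Elovl5 peak at chr9:77917079-77917279, centred 186 bp before the start, had 18.1 scaled tags (12.8 to 25) and 0 control tags. Where the control held 0 tags the ratio is given against a floor of 3 tags, here 10.4, with the exact lower limit of the ratio, here 8.05. The Gpam peak at chr19:55127190-55127390, centred 52 bp before the listed start and 29 bp inside the annotated end of the gene, had 17.6 (12.4 to 24.4) and 1 control tag, a ratio of 30.4 (5.11 to 1232). A further peak of 9.8 (5.99 to 15.1), with 0 control tags, stood 595 bp after the other listed Gpam start. At Dgat1 a peak of 12.7 (8.32 to 18.7), with 1 control tag, was centred 79 bp inside one end of the gene, at chr15:76511842-76512042.

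Acly, which splits citrate into acetyl-CoA and oxaloacetate in the cytosol, held 4 peaks inside the gene on chromosome 11 (100476352 to 100528000). Their heights were 57.8, 24.0, 13.7 and 23.0 scaled tags, with 0, 1, 2 and 2 control tags in the same order. The tallest, at chr11:100485939-100486139, lay 41961 bp after the start, in the part of the gene far from the promoter, and had a ratio against the floor of 33.2 (exact lower limit 26.6). The peak closest to the Acly start was centred 5714 bp after it, with 23.0 (16.9 to 30.6) and a ratio of 19.8 (5.19 to 168). The fifth peak of the window, of 7.35, lay 40141 bp upstream inside the neighbour Ttc25.

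The acetyl-CoA carboxylases make malonyl-CoA, the product of Acaca feeding fatty acid synthesis and that of Acacb restraining fatty acid uptake into mitochondria. Acaca (chromosome 11, 84129635 to 84401651) is the longest gene of the set, at 272017 bp, and held 14 peaks. They ran from 5.39 to 39.7 scaled tags, and 10 of the 17 peaks in its window had 0 control tags, against 44.4% of all listed peaks. The tallest inside stood at chr11:84362706-84362906 with 39.7 (31.5 to 49.3) and 0 control tags, its ratio against the floor being 22.8 (exact lower limit 18.1). The tallest of the window, of 60.8 with 5 control tags and a ratio of 20.9 (8.73 to 65.6), lay 19306 bp outside Acaca and only 1899 bp from Aatf. The peaks of 34.3 and 7.35 at chr11:84159703-84159903 and chr11:84162080-84162280 lie inside both Acaca and the overlapping gene Gm11437, so they cannot be given to either.

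Acacb (chromosome 5, 114146321 to 114250761) had a taller highest internal peak than Acaca, with intervals that did not overlap. Its 8 internal peaks were led by one of 105 (91.3 to 119.9) at chr5:114219365-114219565 and one of 49.0 (39.9 to 59.6) at chr5:114188792-114188992, centred 53947 and 23374 bp after the listed start. The first held 8 control tags, the most at any of the 90 peaks, and its ratio was 22.6 (11.2 to 52.9). The second held 5 control tags and had a ratio of 16.9 (6.99 to 53.1). The interval of the first ratio overlapped that of the tallest peak near Acaca, whereas the intervals of their heights did not overlap. The other internal peaks of Acacb had 7.84 to 15.7, and 3 peaks of 14.7 to 35.8 upstream lay inside Alkbh2 or Ung.

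Fasn, the gene of fatty acid synthase, had no peak above 24.0 in its window. On chromosome 11 (120805958 to 120825166) 1 peak lay inside it, at chr11:120820239-120820439, with 22.1 (16.1 to 29.5), 2 control tags and a ratio of 19.0 (4.96 to 162). It was centred 4208 bp after the listed start. A peak of 9.8 lay 3168 bp beyond the other end. The remaining 3 peaks of the window, of 8.82, 24.0 and 20.1, were nearer to Rfng, Gps1 and Ccdc57. Of all protein-coding genes, 36.3% had a lower tallest peak within 50 kb than Fasn did. Inside the gene the share was 75.8%, and for density it was 61.5%. The share inside counts genes without an internal peak as lower, and only 50.5% of all protein-coding genes held one. Over genes of at least 10 kb, the median tallest peak inside was 12.7.

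The elongases Elovl6 and Elovl5 lay far apart in height. Elovl6 lengthens palmitate towards stearate, whereas Elovl5 lengthens polyunsaturated chains. Elovl6 (chromosome 3, 129532386 to 129638495) held 7 internal peaks, among them one of 270.0 (248 to 294) at chr3:129595105-129595305 and one of 81.3 (69.4 to 94.7) at chr3:129631119-129631319. The taller lay 62819 bp after the start, held 3 control tags and had a ratio of 155 (52.7 to 754). It ranked 376th of all listed peaks. The other, 98833 bp after the start, held 0 control tags, and its ratio against the floor was 46.7 (exact lower limit 37.5). Apart from a peak of 27.4, the other internal Elovl6 peaks had 5.88 to 13.2. No other protein-coding gene lay within 46 kb of either tall peak, Egf being closest at 82369 and 46355 bp.

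Elovl5 (chromosome 9, 77917365 to 77984519) had many peaks, none of them tall. Its window held 12, from 6.86 to 18.1, and the promoter peak described above was the tallest. No Elovl5 peak held more than 2 control tags, and 5 of the 12 held 0, against 44.4% of all listed peaks. Its density of 7.18 peaks per 100 kb of gene and flanks exceeded that of 92.6% of protein-coding genes, while its tallest peak exceeded that of 26.9%. The intervals of the tallest Elovl6 and Elovl5 peaks were far from overlapping.

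Scd1, the stearoyl-CoA desaturase that makes oleate, had no peak above 19.6 in its window. In its window on chromosome 19 there were 4, of 10.3, 13.7, 15.2 and 19.6 scaled tags. The only one inside the gene (44394450 to 44407709) was that of 15.2 (10.3 to 21.6), at chr19:44404058-44404258, with 0 control tags, its ratio against the floor being 8.72 (exact lower limit 6.68). Of all protein-coding genes, 68.8% had a lower tallest peak inside the gene and 29.3% within 50 kb. The first share counts genes without an internal peak as lower, and only 50.5% of all protein-coding genes held one. Over genes of at least 10 kb, the median tallest peak inside was 12.7. The peak of 19.6 lay 47990 bp away and closer to Wnt8b. Scd1 has closely related neighbours, Scd2, Scd3 and Scd4, and any effect of this on the mapping of reads was not tested.

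Gpam, which attaches the first acyl chain to glycerol phosphate at the mitochondrion, had the tallest peak of the set, outside the gene. At chr19:55055991-55056191 it had 404 scaled tags (377 to 432) in BLRP-MafG against 1.16 in the control, where 2 tags were counted, a ratio of 348 (95.9 to 2875). It ranked 123rd of the 68763 listed peaks. Gpam lies on the minus strand, and the peak stood 11544 bp past the end opposite the start. The nearest other protein-coding gene, Tectb, was 124635 bp away. On the other side, 24142 bp upstream of Gpam, stood a peak of 112 (98.2 to 128) at chr19:55151361-55151561 with 4 control tags and a ratio of 48.3 (18.6 to 179). Tectb was 29265 bp from that peak, but an annotated gene that is not protein-coding lay nearer to it than Gpam did. Inside Gpam (55067635 to 55127319) the 4 peaks had 5.88 to 17.6. Within 10 kb of the gene the tallest was therefore 17.6, since both tall peaks lie farther out.

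The diacylglycerol acyltransferases, which carry out the last step of triglyceride synthesis, are unrelated in sequence and differed in their surroundings. Dgat2 (chromosome 7, 99153663 to 99182713) held 1 internal peak, of 34.3 (26.7 to 43.3) with 4 control tags and a ratio of 14.8 (5.52 to 55.7), at chr7:99177984-99178184. The tall peak in its window, of 227 (207 to 249) at chr7:99214716-99214916, held 3 control tags and had a ratio of 130.5 (44.4 to 635). It lay 32103 bp from Dgat2 and 4268 bp from Mogat2, an acyltransferase gene of the related monoacylglycerol route. The window of Dgat2 was the densest of the set, with 11 peaks or 8.52 per 100 kb, but 8 of the 11 were nearer to Mogat2 or Uvrag. Dgat1 (chromosome 15, 76502012 to 76512021) had the peak of 12.7 at its end and, 10943 bp outside, one of 50.0 (40.8 to 60.7) with 3 control tags and a ratio of 28.7 (9.54 to 141). That peak outside Dgat1 lay 835 bp from Scrt1.

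Across the set, the median peak height was close to that of all listed peaks, and peaks were denser. The 90 peaks had a median of 12.9 scaled tags (quartiles 9.8 and 22.4), against 12.3 over all listed peaks (quartiles 7.84 and 23.5). The 46 peaks inside the genes had a median of 12.7, and the 44 outside had a range of 5.88 to 404. Of the 90, 5 (5.56%) reached 100 scaled tags, against 3.66% of all listed peaks, and 3 (3.33%) reached 200, against 1.07%. The 5 were both tall Gpam peaks, those of Elovl6 and Acacb, and the one between Mogat2 and Dgat2. The windows together held 5.19 peaks per 100 kb, against 3.54 over the windows of all protein-coding genes. Counting gene bodies only, the density was 6.28 per 100 kb in the lipogenic genes and 3.21 over all protein-coding genes. Of the 10 genes, 9 were at or above the median of all genes in density, 3.53 per 100 kb, Acly being the exception at 3.3. Another protein-coding gene was nearer than the lipogenic one for 28 of the 90 peaks, against 53.5% of all peak and gene pairs at this distance. No other gene can be nearer to the 46 peaks inside the genes, and the part of gene length in this difference was not tested. The lipogenic gene was the nearest for 60 peaks among protein-coding genes, and for 51 where all annotated genes competed.

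**Figure D3:**
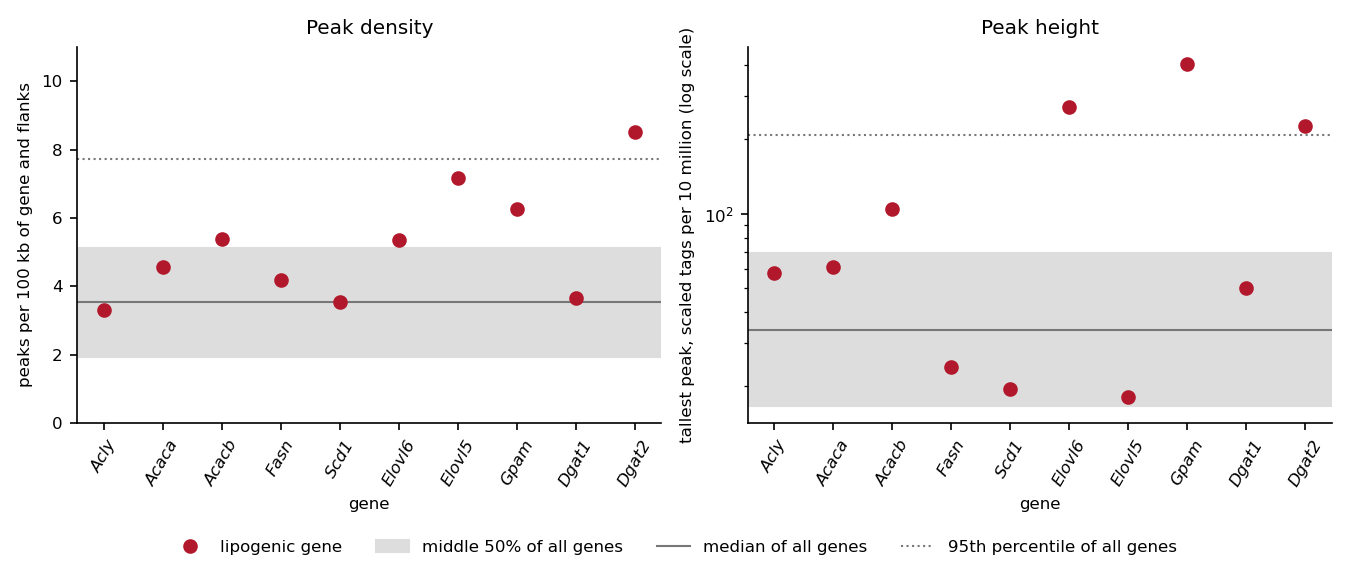
Peaks per 100 kb of gene and flanks (left) and tallest peak in scaled tags on a log axis (right) for each lipogenic gene (red points), with the middle 50% of all protein-coding genes shaded, their median as a line and their 95th percentile dotted. Dgat2, Elovl5 and Gpam have the highest densities, at 8.52, 7.18 and 6.26, while Gpam, Elovl6 and Dgat2 have the highest peaks.

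Peaks at these genes stood less sharply above their surroundings than the median listed peak. By the authors' deposited table, tags in the 90 peaks exceeded those expected from the surrounding 10 kb by a median of 9.13-fold, against 16.2-fold for all listed peaks and 13.9-fold for the 52724 peaks within 50 kb of any protein-coding gene. For each of the 10 genes the median of its own peaks was below 16.2, from 7.21 at Dgat1 to 15 at Acaca. Against the 13.9-fold of peaks within 50 kb of a gene, Acaca was above and the other 9 were below. The median of the lipogenic peaks was 9.76 inside the genes and 8.93 outside them, whereas the median over all peaks inside protein-coding genes was 13.8. Control tags were 0 at 33 of the 90 peaks (36.7%), against 44.4% of all listed peaks. Control tags do not enter the folds over the surrounding 10 kb, which are taken within BLRP-MafG. Any link between the lower folds and the control tags was not tested. The authors' deposited clonal fold, tags against those expected from unique positions, had a median of 0.89 for the 90 peaks, against 0.87 over all peaks.

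The rest of the pathway was covered at the same window by 7 lists of 49 genes, and all 49 had a peak within 50 kb, where 93.5% of all genes do. The suppliers of citrate carbon and NADPH (Slc25a1, Acss2 and Me1) had a median tallest peak of 165, and 2 of the 3 reached 100, against 16.4% of all genes. Acss2, a cytosolic acetyl-CoA synthetase, had 59.8 (49.6 to 71.4), inside Gss. Slc25a1, the mitochondrial citrate carrier, had one of 213 (193 to 234), 43832 bp away and closer to Vpreb2, and Me1, the cytosolic malic enzyme, one of 165 (148 to 183) that lay inside Pgm3. Among 5 other desaturases the median was 53.4. Fads2, of polyunsaturated fatty acid synthesis, led with 209 (189 to 229.6) at a peak inside Rab3il1, and Scd2 and Scd3 shared one of 53.4. Of 5 other elongases 0 reached 100, and their median was 38.7. Elovl4, an elongase of very long chains, ranked second among them with 48.0 (39 to 58.5), 47718 bp away.

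Among 11 other genes of glycerolipid acylation, 4 reached 100 scaled tags, against 16.4% of all genes, and 10 had a peak inside the gene, against 50.5%. Mogat2 led through the peak of 227 already given at Dgat2. Lpin1, whose phosphatase makes diacylglycerol for the DGAT enzymes, had one of 219.5 (199.7 to 241) inside the gene, at chr12:16568176-16568376, where the control held 1 tag and the ratio was 378 (67.5 to 14960). Its nearest other gene, Ntsr2, lay 85167 bp away. The lowest of that list was Gpat2, with a single peak of 5.88.

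Of 11 regulators of lipogenesis, 7 had a peak inside the gene, against 50.5% of all genes, and 7 within 1 kb of an end, against 24.5%. Their median tallest peak was 46.6. Ppargc1b, a coactivator of SREBP and other factors, held the tallest, 349.9 (325 to 377) within its own length, where the control held 1 tag and the ratio was 602 (108 to 23822). Mlxipl, which encodes the carbohydrate-responsive factor ChREBP, came next with 177 (159 to 196) and 0 control tags, but that peak lay 33465 bp away inside Bcl7b. The exact lower limit of its ratio to control was 82.1.

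**Figure D4:**
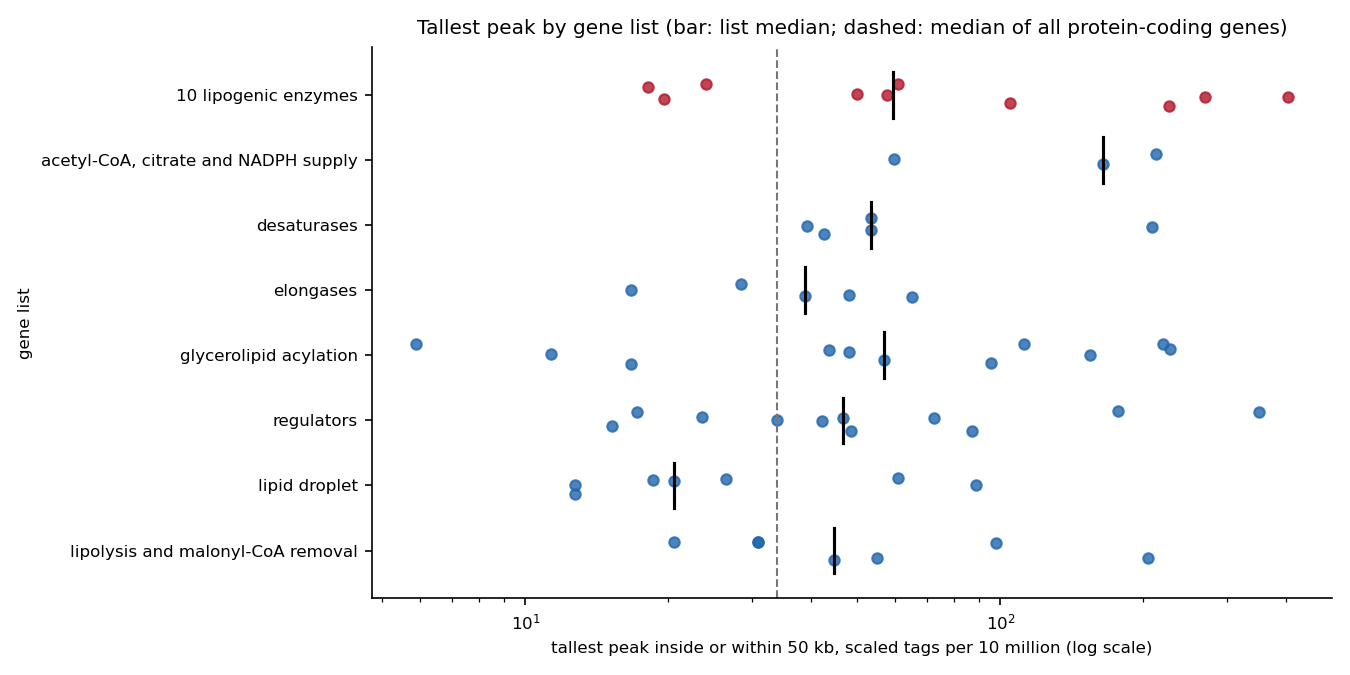
Tallest peak inside or within 50 kb of each gene (horizontal axis, scaled tags, log scale) for the 10 lipogenic enzymes (red) and 7 further lists of lipid genes (blue), with 1 point per gene and a black bar at the list median. The lipogenic enzymes span 18.1 to 404 around a median of 59.3, and the dashed line at 33.8 is the median of all protein-coding genes.

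The limit of 50 kb did not fall at a step in the signal. Within 5 kb inside it lay 3 peaks, of 13.2 to 19.6 scaled tags, and within 5 kb outside it 5 peaks, of 6.37 to 33.8.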

How the data were processed

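One deposited peak list served all comparisons. Bowtie2, HOMER and mm10 are named, without versions, per the submitters' processing notes. Per the file headers, HOMER findPeaks compared 1 BLRP-MafG tag collection with 1 control collection, with a peak size of 200 bp, a fold of 10 over control at a Poisson p of 1e-06, and a fold of 4 over the surrounding 10000 bp at a p of 0.0001. Whether each collection joined both libraries of its group is not stated. The deposited BLRP-MafG signal is scaled to 10000000 tags, and the deposited control signal is unscaled with 0.5 for 0 tags. As deposited, fold values are linear ratios and p-values come from Poisson tests over tags; the score, also deposited, was not used. Genes and promoters came from RefSeq tables of GRCm38.p6, which name no exons; introns and exons were not separated.

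Tags were recovered from the scaled signal (100% within 0.11 of a whole number). Ratios against 0 control tags used a floor of 3 tags. A peak belonged to a gene if its midpoint lay in the window. Intervals were tested on simulated counts with Python 3.11.15 and SciPy 1.17.1. The simulated counts were not filtered as the listed peaks were, so coverage after that selection was not tested. Members, lists, height limits and motifs were chosen with earlier results of these data known. Of each further list, the 2 genes with the tallest peak are named, with Acss2 and Gpat2 added after their values were seen; the elongase that ranked first is not reported here. Alternatives were the window, the overlap rule, a fold of 20 and a p of 1e-10 against control, and the genes that compete for a peak.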

Additional observations from a re-analysis of the deposited data

How the results depend on the processing

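No paired analysis was possible because the list gives no value per library; for the same reason no replicate could be left out. A peak inside the gene was found for 8 to 10 of the 10 lipogenic genes under the alternatives run. The lowest count came where the fold against control had to reach 20, under which 8 also had a peak within 10 kb. The shares of all protein-coding genes at a fold of 20 are not given, so the counts there have no background beside them. The number of peaks, 90, was 54 within 10 kb, 46 inside the genes and 56 at that higher fold, since each of these removes peaks by construction. Peaks within 1 kb of an end then stood at 3 genes in place of 5. The median height stayed between 12.1 and 13.7. The median tallest peak was 28.2 within 10 kb and inside the genes, against 59.3 within 50 kb: Gpam then fell to 17.6, Dgat1 to 12.7, Dgat2 to 34.3 and Acaca to 39.7, because their tallest peaks lie farther out. The median ratio of the tallest peaks was 25.6 with the floor of 3 control tags and 45.5 with the authors' 0.5. CCAAT stood in 5 of the 8 promoter windows, against 38.2% of all windows, and CACGTG in 1, against 7.84%. TGACNNNGC, TGANTCA and TGCTGA stood in 0, against 13%, 6.99% and 18.1%. CCAAT and CACGTG were added after the sequences had been read and differ in background share from the others, so the counts cannot be compared directly. With 0 to 8 control tags per peak, depth limits every ratio: its lower limit exceeded 10 at 10 of the 90 peaks. The same share over all listed peaks is not given, so this count does not set these genes apart.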

Other observations

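Genes that store triglyceride in lipid droplets or break it down had peaks at the same window. Of 7 lipid droplet genes, all had a peak within 50 kb, against 93.5% of all protein-coding genes, 3 had one inside the gene, against 50.5%, and 0 reached 100 scaled tags, against 16.4%, with a median tallest peak of 20.6. Cidec, which promotes droplet growth, held one of 60.8 (50.5 to 72.4) inside the gene with 1 control tag. The tallest in the list, of 88.7 (76.2 to 103), lay 46873 bp from Plin5, a droplet coat protein gene, and inside Chaf1a. Of 7 genes of lipolysis and malonyl-CoA removal, all had a peak within 50 kb, against 93.5% of all genes. All also had one within 10 kb, against 74.5%, where 5 of the 7 droplet genes did. Of this lipolysis list, 4 had a peak inside the gene, against 50.5%, and 1 reached 100 scaled tags within 50 kb, against 16.4%. The median tallest peak of the list was 44.6 within 50 kb. Pnpla2, the gene of adipose triglyceride lipase, had one of 205 (186 to 225) that lay 41756 bp away inside Chid1, and Pnpla3 one of 98.0 (84.9 to 113) inside Samm50. Among these lists and the lipogenic enzymes, the median of all protein-coding genes, 33.8, lay above the droplet median and below the other medians.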
